A study of Mus musculus with 25 samples.

Results

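Apobec3 and AI506816 were 2 of 19937 genes measured on 25 arrays of mouse mammary tissue, and both had arrays at a high level, arrays at a low level and an empty interval between them. They were chosen from the array values themselves, with 1 probe set per gene symbol (the one with the highest mean over the arrays), so their levels are given as a description and without a test. The arrays are described together with the other probe sets that divided them in the same way. Apobec3 was high in 6 arrays and AI506816 in 5 others. Of the 4 groups, 2 were tumors: 10 of K8-creERT2/PIK3CA H1047R mice (mixed background FVB/CD1) and 10 of Lgr5-creERT2/PIK3CA H1047R mice (mixed background FVB/C57/BL6). The other 2 groups were labelled control mammary glands, 2 of K8-creERT2 mice and 3 of Lgr5-creERT2 mice. Keratin 8 (K8) marks luminal cells and Lgr5 is a receptor of Wnt-responsive cells. Each drives a Cre recombinase that tamoxifen activates, and the protocol in the labels gives tamoxifen at 7 to 8 weeks of age. PIK3CA H1047R is a mutant catalytic subunit of PI3-kinase, switched on by the Cre in the tumor groups. Line, Cre driver and strain background go together in these groups and cannot be told apart. Because both backgrounds are mixed, the animals of 1 group need not share the same alleles. The labels do not say whether the tumors came from separate animals, so the spread between arrays may be technical in part.

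Apobec3 encodes a cytidine deaminase that enters retroviral particles and converts cytosine to uracil in their DNA copies, and in the mouse it is the gene behind the retrovirus resistance factor Rfv3. Mice have 1 Apobec3 gene, and inbred strains are known to carry alleles that differ in transcript level and splicing. AI506816 is annotated as a long non-coding RNA, named after an expressed sequence, and has no function given here. D730005E14Rik is a second long non-coding RNA, which lies directly before Apobec3 in gene order on chromosome 15, on the opposite strand. The annotated spans of Apobec3 and D730005E14Rik overlap by 1081 bases. The arrays were hybridised with labelled double-stranded cDNA, per the labels, so transcripts from the overlapping strands cannot be told apart there.

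The start regions of Apobec3 and D730005E14Rik are shown because these genes moved together across the arrays. Each window holds 250 bases before and 50 after an annotated start, from RefSeq on build GRCm38.p6, and all 3 genes looked up were found there. Apobec3 has a window at each of its 2 annotated starts, chr15:79892158-79892457 and chr15:79894773-79895072, both on the plus strand. The window of D730005E14Rik is chr15:79893089-79893388 on the minus strand. Capitals mark matches to 3 motifs searched on both strands: the interferon response element core, which is GAAA, any 2 bases and GAAA, the TATA box TATAAA and the GC box GGGCGG.
Apobec3, first start: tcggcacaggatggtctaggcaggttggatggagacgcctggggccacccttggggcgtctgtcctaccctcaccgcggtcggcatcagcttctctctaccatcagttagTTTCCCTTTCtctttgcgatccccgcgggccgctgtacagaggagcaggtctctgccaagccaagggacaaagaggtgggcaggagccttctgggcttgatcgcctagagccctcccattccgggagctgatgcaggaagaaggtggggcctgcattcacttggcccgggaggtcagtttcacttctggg
Apobec3, second start: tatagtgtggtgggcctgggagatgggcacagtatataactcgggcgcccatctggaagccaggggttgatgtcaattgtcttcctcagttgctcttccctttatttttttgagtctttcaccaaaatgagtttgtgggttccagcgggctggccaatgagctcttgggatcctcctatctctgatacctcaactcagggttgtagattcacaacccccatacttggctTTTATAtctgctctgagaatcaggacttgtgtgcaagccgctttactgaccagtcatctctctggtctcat
D730005E14Rik: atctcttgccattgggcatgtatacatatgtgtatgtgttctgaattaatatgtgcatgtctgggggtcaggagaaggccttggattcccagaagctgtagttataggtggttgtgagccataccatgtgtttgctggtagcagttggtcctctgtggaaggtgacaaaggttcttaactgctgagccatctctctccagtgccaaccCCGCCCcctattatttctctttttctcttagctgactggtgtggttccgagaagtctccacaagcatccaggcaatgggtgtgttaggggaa
The first Apobec3 window, with 61.0% G and C, held 1 match to the interferon element, TTTCCCTTTC, at base 111. The second, with 48.3% G and C, held 1 TATA match, and the D730005E14Rik window, with 48.0%, held 1 GC box match. Over 32851 start windows of the same length, 3.44% held the interferon element, 13.6% the TATA box and 35.7% the GC box. These matches describe the reference sequence only.

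Values are deposited probe set values on the log2 scale, where a difference of 1 is a doubling of signal; over all probe sets they ran between 4.13 and 13.9, with array medians of 6.34 to 6.43. The tissue content of some arrays did not match their labels, and groups are named here as the labels have them. Lgr5 tumors 2, 6, 7, 8 and 9 had a mean of 12.52 to 12.7 over 11 fat cell markers, against 7.66 to 8.59 in the K8 glands and 7.47 to 9.64 in the Lgr5 glands. The mean of 12 squamous markers was 9.48 in K8 tumor 9 and 9.67 in Lgr5 tumor 10, beside 8.52 to 10.31 in the 5 glands and at most 7.79 in the other tumors. The 5 glands were thus themselves high in squamous markers. Their means over 11 cell cycle markers were 9.89 to 10.13 in the K8 line and 9.59 to 9.66 in the Lgr5 line. K8 tumors had 8.68 to 9.63 and Lgr5 tumors 6.88 to 9.75. Comparisons with the glands are therefore with arrays as labelled, and whether they stand for normal gland was not tested. Results that rest on the 5 Lgr5 tumors rich in fat cell markers are given with and without them. For K8 tumor 9 and Lgr5 tumor 10 this is given for counts of genes called and for the count of genes that divide the arrays as Apobec3 does.

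Apobec3 (probe set 10425321) was high in 6 arrays, all labelled tumor. In the K8 tumors numbered 1 to 10 it measured 10.2, 10.97, 11.03, 9.89, 11.08, 10.99, 9.44, 9.9, 9.39 and 10.09. In the Lgr5 tumors numbered 1 to 10 it measured 9.52, 8.72, 10.85, 9.32, 10.85, 9.05, 8.64, 8.3, 9.0 and 9.15. K8 tumors 2, 3, 5 and 6 and Lgr5 tumors 3 and 5 therefore stood at 10.85 to 11.08. The K8 glands measured 9.37 and 9.17, and the Lgr5 glands 9.18, 9.84 and 9.49. All 5 glands lay below the 6 high arrays and within the range of the low tumors. No array had a value between 10.2 and 10.85, an interval of 0.64 before rounding. High arrays made up 4 of 10 K8 tumors, 2 of 10 Lgr5 tumors, 0 of 2 K8 glands and 0 of 3 Lgr5 glands.

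By group mean the order for Apobec3 was K8 tumors at 10.3 ± 0.668 (SD, n = 10), Lgr5 glands at 9.51 ± 0.330 (n = 3), Lgr5 tumors at 9.34 ± 0.868 (n = 10) and K8 glands at 9.27 ± 0.142 (n = 2). The ranges of the first and second group in this order overlapped, and the other 3 groups lay within each other's spread. The difference of mean levels, K8 minus Lgr5, was 0.96 between tumors and -0.23 between glands. The ranges of the groups overlapped in both comparisons, and the tumor difference was 0.36 without Lgr5 tumors 2, 6, 7, 8 and 9. Those 5 arrays, rich in fat cell markers, had the 5 lowest Apobec3 values of all, 8.3 to 9.05. In bulk tissue, fewer cells that express a gene and less RNA per cell cannot be told apart. The part of fat in these values was not tested.

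The second Apobec3 probe set (10425333) had the same 6 arrays on its high side, with a wider empty interval. Its level was 9.95 to 10.25 in the 4 high K8 tumors, and 10.0 and 10.05 in Lgr5 tumors 3 and 5. The other 6 K8 tumors measured 7.47 to 8.33 and the other 8 Lgr5 tumors 7.24 to 7.66. The K8 glands measured 7.41 and 7.16, and the Lgr5 glands 7.36, 7.64 and 7.54. The gap between the sides was 1.62. At this probe set the 5 arrays rich in fat cell markers, at 7.24 to 7.6, lay among the other low arrays and were not the lowest. Within the low side the K8 tumors 1, 4, 8 and 10 had the 4 highest values at both probe sets: 9.89 to 10.2 at the first and 7.71 to 8.33 at the second.

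**Figure D1:**
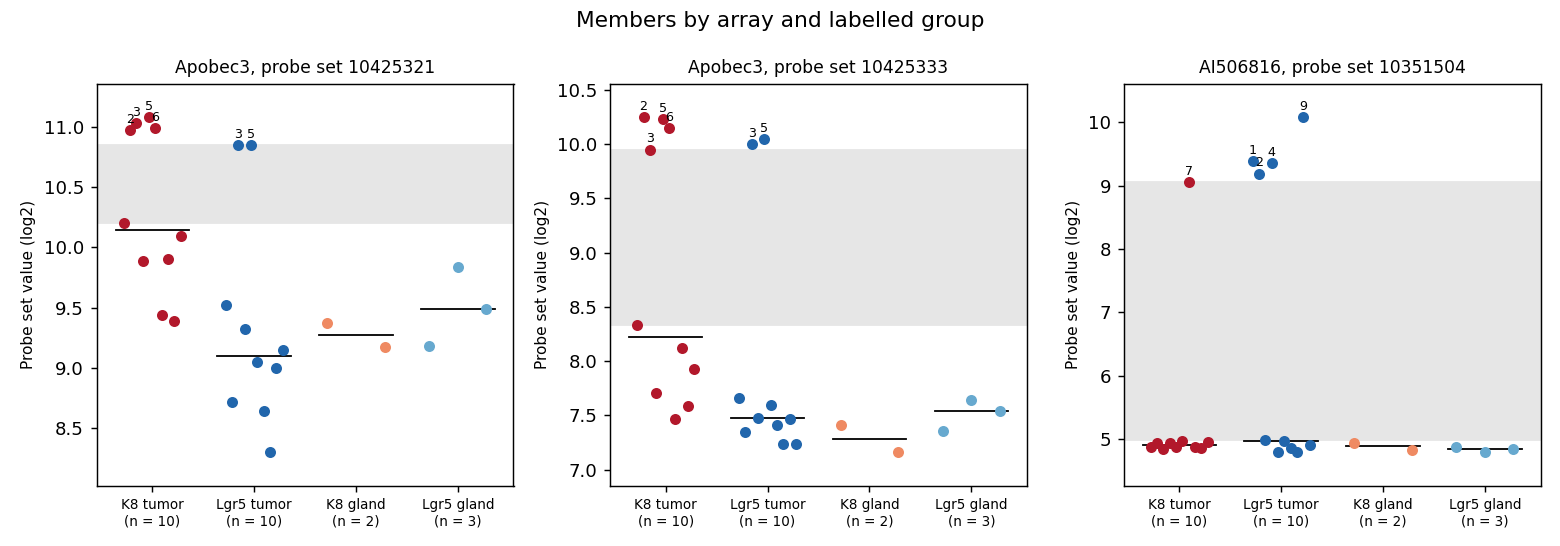
Level (log2) of both Apobec3 probe sets and of AI506816 in each array, 1 point per array, by labelled group, with the group median as a line and the empty interval between high and low arrays in grey. The same 6 numbered tumors lie above the interval at both Apobec3 probe sets, and 5 other tumors lie above it for AI506816.

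Besides Apobec3, 1 gene divided the arrays as Apobec3 did with a gap of at least 0.5, which is 0.00502% of the 19936 other genes. A gap here is the lowest value of the high side minus the highest value of the low side. The gene was D730005E14Rik, the neighbour that overlaps Apobec3. With any gap above 0, 30 genes (0.15%) had all 6 arrays above the other 19, and 12 genes (0.0602%) had them all below. D730005E14Rik lay just inside the minimum at 0.53 and Rabl2 just outside it at 0.47.

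D730005E14Rik (probe set 10430647) measured 7.77, 7.92, 7.93 and 7.9 in the high K8 tumors (2, 3, 5 and 6). It measured 8.52 in Lgr5 tumor 3 and 7.34 in Lgr5 tumor 5. The other K8 tumors measured 6.61 to 6.81 and the other Lgr5 tumors 6.32 to 6.65. The glands, at 6.61 and 6.65 for K8 and 6.61 to 6.78 for Lgr5, lay among the low arrays. Its second probe set (10430645) showed the same division with a gap of 1.38. There the high side measured 7.53 to 8.19 and the low side 5.2 to 6.14. Lgr5 tumor 3 had the highest value of all 25 arrays at both D730005E14Rik probe sets, while at the 2 Apobec3 probe sets it lay in the lower part of the high side.

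Over all probe sets, including those without a single gene symbol, 4 (0.0115%) divided the arrays as Apobec3 did with a gap of at least 0.5. They were both D730005E14Rik probe sets, the second Apobec3 probe set, and 1 probe set (10430669) that the annotation pairs with several symbols and that is therefore left unnamed. This unnamed probe set had the widest gap of the 4, 3.27. Its level was 12.98 to 13.15 in the 4 high K8 tumors, and 12.95 and 12.81 in Lgr5 tumors 3 and 5. The other tumors measured 8.76 to 9.54 in the K8 line and 7.89 to 9.14 in the Lgr5 line. The K8 glands, at 9.28 and 9.12, and the Lgr5 glands, at 9.04 to 9.33, lay on the low side too. Another probe set (10598721) with the same symbols measured 12.8 to 12.99 in the 6 high arrays and 12.22 to 12.83 in the other 19, so its sides overlapped.

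**Figure D2:**
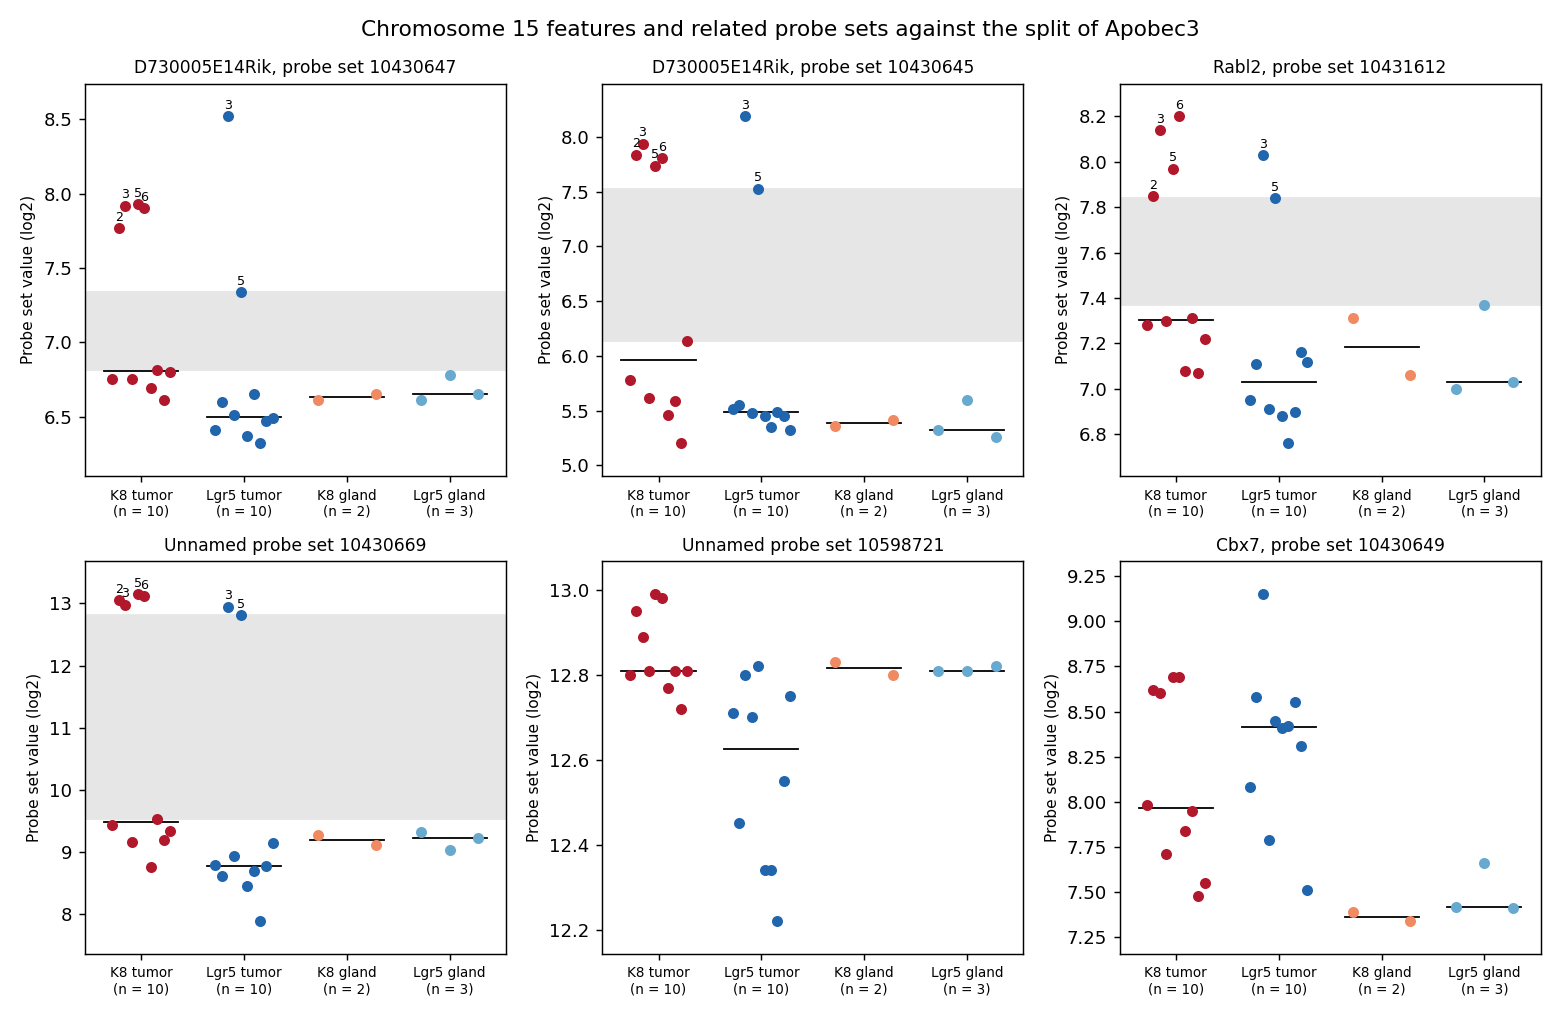
Level (log2) in each array, 1 point per array and by labelled group, of both D730005E14Rik probe sets, Rabl2, Cbx7 and the unnamed probe sets 10430669 and 10598721. Lines are group medians and grey marks a gap between the sides. The numbered arrays are the 6 high for Apobec3, and the grey interval is widest for the unnamed probe set 10430669, at 3.27.

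Genes with narrower gaps along the Apobec3 division came from several chromosomes. Rabl2, a Rab-like small GTPase also on chromosome 15, measured 7.84 to 8.2 in the 6 high arrays and 6.76 to 7.37 in the other 19. Cirbp, a cold-inducible RNA-binding protein gene on chromosome 10, measured 9.6 to 9.92 against 8.46 to 9.19, a gap of 0.41. Adgrb3, an adhesion receptor gene on chromosome 1, had a gap of 0.33 and Rpl34, a ribosomal protein gene on chromosome 3, one of 0.26. The next 10 genes, Olfr550, Zfp414, Nxpe2, Paqr6, Zfp827, Zfp687, Thtpa, 9930014A18Rik, Med16 and Gpsm2, had gaps of 0.05 to 0.21. In the opposite direction the widest gap was 0.15, for the 14-3-3 protein gene Ywhag, which measured 9.78 to 9.95 in the 6 arrays and 10.1 to 11.66 in the others. Chml, a Rab escort protein gene, followed with a gap of 0.09, and Hsph1, a heat shock protein gene, had one of 0.05. Of the 30 genes in the same direction 4 (13.3%) lay on chromosome 15, which holds 752 (3.77%) of the 19937 genes; none of the 12 in the opposite direction did. The 4 were D730005E14Rik, Rabl2, 9930014A18Rik and Micall1, a gene of endosome traffic with a gap of 0.02. Genes of 1 chromosome can be inherited together, so these are not independent counts.

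Over all arrays, most measured genes near Apobec3 on the chromosome did not follow the division in full. Of the 10 measured genes on each side of Apobec3, only D730005E14Rik separated the 6 arrays from the other 19, and the sides of the other 19 neighbours overlapped. This count leaves out probe sets with several symbols, among them 10430669 with its gap of 3.27, whose place in the genome is not given here. The median of the high arrays minus that of the others ran from -0.26 (Syngr1) to 0.86 (Cbx7) among these 19 neighbours. The smallest overlaps were those of Fam227a, Dnal4, Dmc1 and Cbx7. Fam227a measured 5.54 to 5.65 in the high arrays and 5.43 to 5.64 in the others. The meiotic recombinase gene Dmc1 measured 5.39 to 5.59 and 5.32 to 5.52. Both lay below the array medians and varied little, with median differences of only 0.06 and 0.006 between the sides. Their small overlap thus does not show that they followed the division. The dynein light chain gene Dnal4 measured 8.18 to 8.54 and 7.78 to 8.3, with a median difference of 0.405. Cbx7, a Polycomb gene and the next after Apobec3, measured 8.45 to 9.15 in the 6 high arrays and 7.34 to 8.58 in the others. The overlap for Cbx7 came from the fat-rich Lgr5 tumors 2 and 8, at 8.58 and 8.55, which exceeded Lgr5 tumor 5 at 8.45. Without Lgr5 tumors 2, 6, 7, 8 and 9 the sides of Cbx7 did not overlap. The highest low array was then Lgr5 tumor 1, at 8.08. All 5 glands were low for Cbx7, at 7.34 and 7.39 in the K8 line and 7.41 to 7.66 in the Lgr5 line. Gtpbp1, which lies 4 genes before Apobec3, measured 9.67 to 9.8 in the high arrays and 9.66 to 10.0 in the others.

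**Figure D3:**
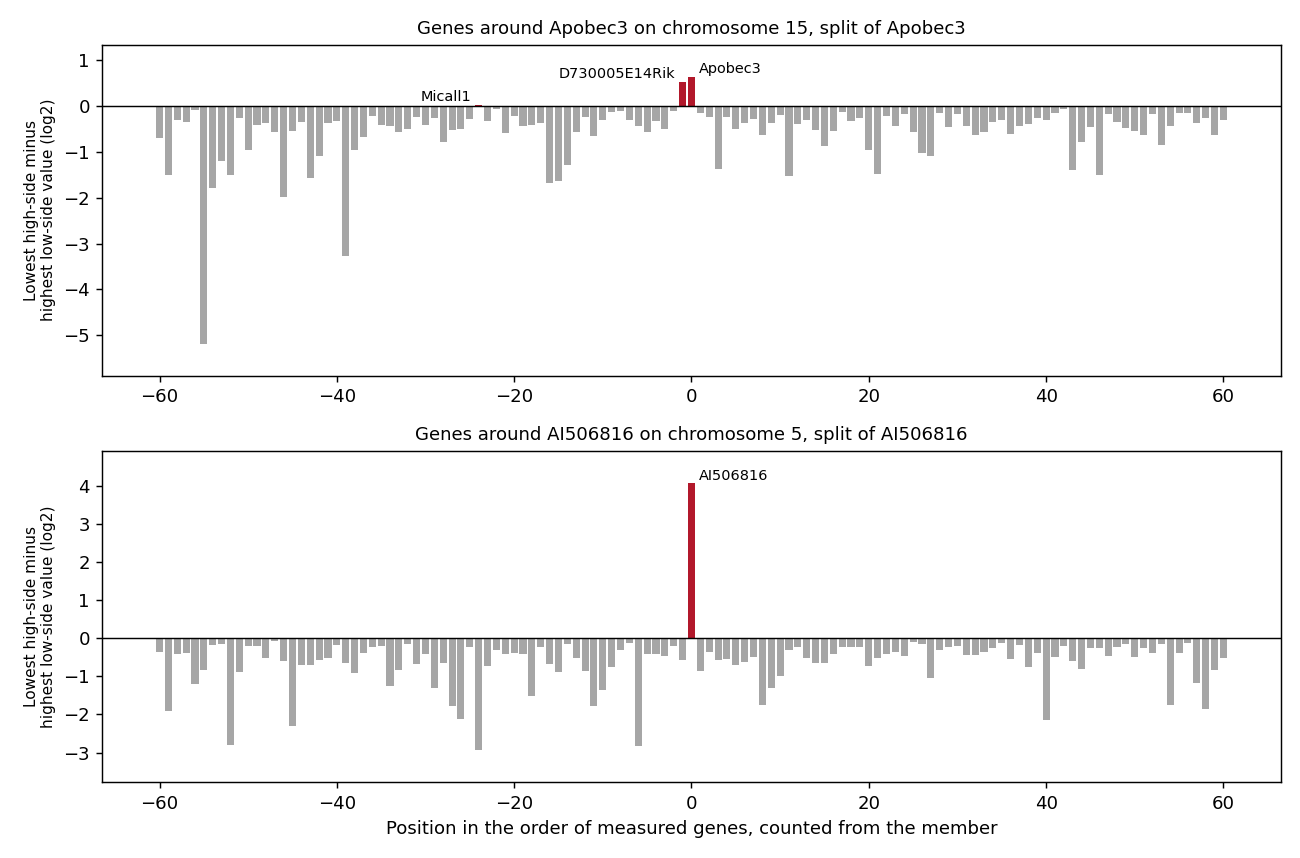
Lowest high-side value minus highest low-side value (log2) for the measured genes around each member in gene order, with Apobec3 and chromosome 15 above and AI506816 and chromosome 5 below; bars above 0 mark genes whose sides do not overlap. Around Apobec3 such bars belong to D730005E14Rik at 0.53, Apobec3 at 0.64 and Micall1 at 0.02, and around AI506816 to that gene alone.

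AI506816 (probe set 10351504) was high in 5 arrays, again all labelled tumor, and none of them was high for Apobec3. In the K8 tumors numbered 1 to 10 it measured 4.88, 4.94, 4.84, 4.94, 4.87, 4.96, 9.05, 4.88, 4.86 and 4.95. In the Lgr5 tumors numbered 1 to 10 it measured 9.38, 9.19, 4.98, 9.35, 4.8, 4.97, 4.85, 4.79, 10.08 and 4.91. K8 tumor 7 and Lgr5 tumors 1, 2, 4 and 9 were thus high, at 9.05 to 10.08. The K8 glands measured 4.94 and 4.83, and the Lgr5 glands 4.88, 4.8 and 4.84. The 20 low arrays lay between 4.79 and 4.98, near the lower end of all values on the arrays. The empty interval spanned 4.07. High arrays made up 1 of 10 K8 tumors, 4 of 10 Lgr5 tumors, 0 of 2 K8 glands and 0 of 3 Lgr5 glands, and 14 arrays were high for neither gene.

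By group mean the order for AI506816 was Lgr5 tumors at 6.73 ± 2.40 (SD, n = 10), K8 tumors at 5.32 ± 1.31 (n = 10), K8 glands at 4.89 ± 0.076 (n = 2) and Lgr5 glands at 4.84 ± 0.040 (n = 3). The group medians were closer, at 4.98, 4.91, 4.89 and 4.84 in the same order, and neighbouring groups did not differ beyond their spread. The mean level was lower in K8 tumors than in Lgr5 tumors, with a difference of -1.41, and the glands differed by 0.05, K8 minus Lgr5. The difference between tumors was -1.37 without Lgr5 tumors 2, 6, 7, 8 and 9. High and low arrays occurred within both tumor groups and, among the 5 arrays rich in fat cell markers, Lgr5 tumors 2 and 9 were high and Lgr5 tumors 6, 7 and 8 low.

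Where the AI506816 probes lie is not settled by the annotations used here. The gene table places the gene on chromosome 5. In the platform annotation all 19 placed entries within 10 rows of its probe set lie on chromosome 1, whereas for Apobec3 20 of 20 lie on chromosome 15, its own. Among those chromosome 1 entries, Fcgr4, an immunoglobulin G receptor gene of myeloid cells, measured 5.47 to 7.77 in the 5 high arrays and 5.33 to 7.04 in the other 20. Dusp12, a phosphatase gene, measured 6.5 to 6.7 and 6.34 to 7.03. The sides overlapped for both genes. On chromosome 5 all 20 nearest measured neighbours of AI506816 overlapped as well, among them Srpk2, a kinase of splicing factors, at 9.02 to 9.43 in the high arrays and 9.12 to 9.59 in the others, and Pus7, a pseudouridine synthase gene, at 7.84 to 8.23 and 7.81 to 8.71.

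No other gene divided the arrays as AI506816 did with a gap of at least 0.5 (0.0% of 19936), and neither did any of the other probe sets. With any gap above 0, 13 genes (0.0652%) followed in the same direction and 6 (0.0301%) in the opposite one. Jaml, a leukocyte adhesion gene, had the widest gap, 0.19: it measured 6.06 to 6.56 in the 5 high arrays and 5.42 to 5.87 in the others. Mxra7 followed at 0.12 and the receptor gene Notch2 at 0.07. Man2b2, Dnase1l1, Fcrls, Clec4a1, Lsp1, Mrgprb2, Tbc1d2b, Cygb, Unc93b1 and Il6st had gaps of at most 0.04. In the opposite direction Naa35, Pmf1, Rtkn2, Mfn1, Cox11 and Cep19 did too. Only Man2b2 of the 13 lies on chromosome 5 (7.69%, with 5.74% of all genes there). A probe set with several symbols (10392834) had a gap of 0.45, with 9.65 to 9.99 in the high arrays and 7.01 to 9.2 in the others.

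The count for AI506816 changed when the arrays rich in fat cell markers were left out. The omission also changed the division from 5 against 20 arrays to 3 against 17, so the counts are not directly comparable. Without Lgr5 tumors 2, 6, 7, 8 and 9, the high side held K8 tumor 7 and Lgr5 tumors 1 and 4 against 17 arrays, and 86 genes (0.431%) divided these arrays in the same direction with a gap of at least 0.5. They included 6 of 11 measured fat cell markers and 2 of 9 skeletal muscle markers. The following genes were chosen after their values were seen. Thbs4, a matrix protein gene, had a gap of 2.05, the thermogenic brown fat gene Ucp1 one of 1.39, the fat cell hormone gene Lep one of 1.4 and the muscle myosin gene Myh1 one of 0.98. Another 10 genes (0.0502%) followed in the opposite direction. They were Ccnb2 at 0.51, Cenpe, Cenpf, Ckap2, Depdc1a, Hmmr, Kif23, Prc1, Tpx2 and Tes. Of these, Ccnb2 is on the list of 11 measured cell cycle markers, which does not hold every gene of the cell cycle. The mean of that list was also lower, at 8.39 to 8.68 against 8.88 to 10.13. For Apobec3 the same omission left the count at 1, again D730005E14Rik. This omission was added for these counts after the data were seen.

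Among all 19937 genes, AI506816 had the fourth widest empty interval with at least 3 arrays on each side, and Apobec3 ranked 1195 with D730005E14Rik at 1609. An interval of at least 4 was found in 5 genes, one of at least 1 in 536 (2.69%) and one of at least 0.5 in 1748 (8.77%). Since intervals chose the members, these ranks are a description.

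**Figure D4:**
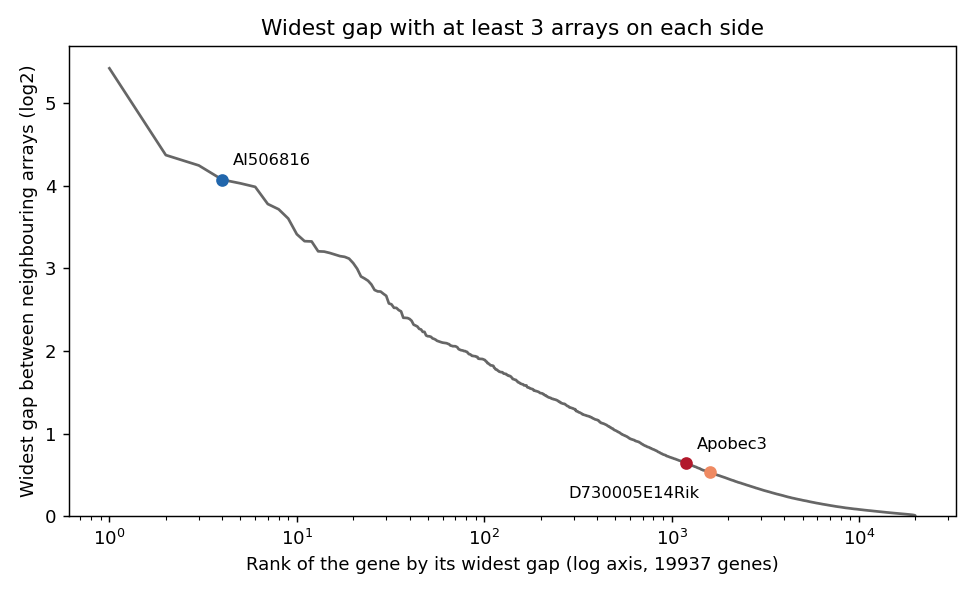
Widest empty interval between neighbouring array values (log2, at least 3 arrays on each side) of each of 19937 genes, against its rank on a log axis. AI506816 lies at rank 4 with 4.07, Apobec3 at 1195 with 0.64 and D730005E14Rik at 1609 with 0.53.

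Over all 25 arrays no marker list separated the high from the low arrays of either gene, and 0 genes of any list did; without Lgr5 tumors 2, 6, 7, 8 and 9 several did for AI506816, as given below. In the 6 arrays high for Apobec3 the squamous marker mean was 5.73 to 6.55, against 5.78 to 10.31 in the other 19. Fat cell markers averaged 7.92 to 9.64 against 7.47 to 12.7. Epithelial markers averaged 10.65 to 11.11 against 9.0 to 11.49, and basal markers 11.27 to 11.71 against 8.87 to 11.69. The 6 arrays thus lay at low squamous and high basal levels, and the ranges of the 2 sides overlapped for each of these lists. T cell markers (6.34 to 6.74 against 6.25 to 7.56), B cell markers (6.0 to 6.57 against 5.91 to 7.71) and macrophage markers (9.35 to 10.07 against 9.31 to 10.43) had overlapping ranges. The mean of 19 interferon-stimulated genes was 7.9 to 8.53 in the high arrays and 7.4 to 8.7 in the others.

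In the 5 arrays high for AI506816, fat cell markers averaged 10.44 to 12.7, against 7.47 to 12.58 in the other 20. Skeletal muscle markers averaged 10.44 in K8 tumor 7, 10.58 in Lgr5 tumor 4, 9.83 in Lgr5 tumor 1, 6.6 in Lgr5 tumor 2 and 6.5 in Lgr5 tumor 9. All 5 high arrays had at least 10.44 for fat cell markers. In the low arrays, values of that height occurred in Lgr5 tumors 6, 7 and 8, at 12.52 to 12.58. Macrophage markers averaged 9.72 to 10.33 in the high arrays and 9.31 to 10.43 in the others. Without Lgr5 tumors 2, 6, 7, 8 and 9, the 3 remaining high arrays lay above all 17 low ones in fat cell markers, at 10.44 to 11.26 against 7.47 to 9.64, and in muscle markers, at 9.83 to 10.58 against 6.48 to 9.64. T cell markers, at 6.78 to 7.21 against 6.25 to 6.74, and B cell markers, at 6.65 to 7.38 against 5.91 to 6.57, were then higher too, and cell cycle markers lower, at 8.39 to 8.68 against 8.88 to 10.13. The 13 genes that differ between strains also averaged higher there, at 7.92 to 8.01 against 7.53 to 7.79. Taken singly, 0 of these 13 separated the sides with a gap of at least 0.5. The part of strain background was not tested. The macrophage, epithelial, basal and squamous lists overlapped, and for Apobec3 every list overlapped without the 5 arrays. The part of fat, muscle and immune cells in either division was not tested.

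**Figure D5:**
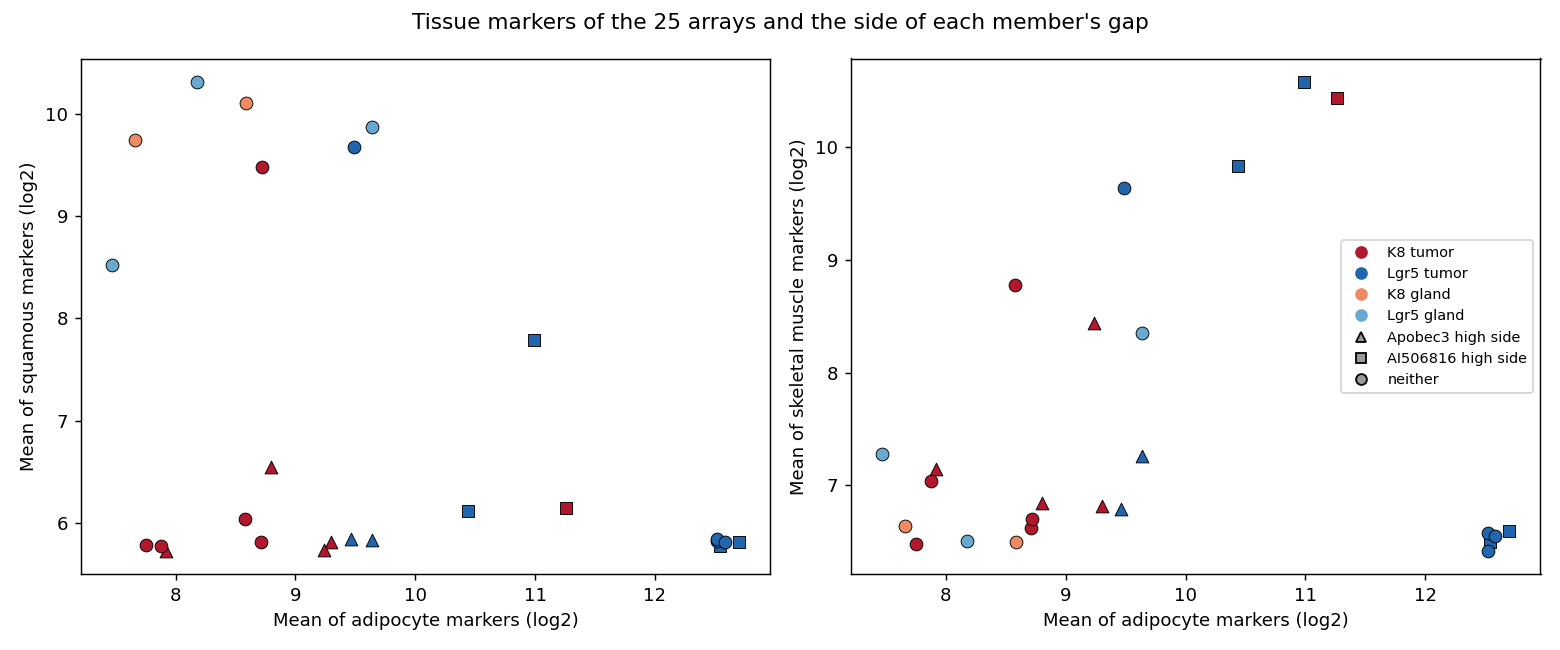
Mean of the squamous markers (left) and of the skeletal muscle markers (right) against the mean of the fat cell markers (log2), 1 point per array, coloured by labelled group, with triangles for arrays high for Apobec3 and squares for arrays high for AI506816. Triangles lie at fat marker means of 7.92 to 9.64 and squares at 10.44 to 12.7, and circles of low arrays lie beside both.

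The contrast of the tumor groups was tested on genes that the choice of members did not use, by limma with adjusted p-values over all genes. Of 19937 genes, 4246 (21.3%) passed an adjusted p of 0.05 between K8 and Lgr5 tumors, 12.3% higher and 9.0% lower in K8 tumors. Without Lgr5 tumors 2, 6, 7, 8 and 9, or with the fat marker mean as a covariate, limma called 0 genes, and 1638 and 497 had an unadjusted p under 0.05. Each of the 15 calls below was lost in both cases. The difference stayed within a factor of 1.5 of its full value for 2 of them with the covariate (Josd1 0.21, Wdfy1 0.25) and for 3 without the arrays (Josd1 0.26, Reln 0.91, Ung 0.12). Between the K8 and Lgr5 glands limma called 0 genes (0.0%), with 319 at an unadjusted p under 0.05, and 5 with array weights. None of the genes below passed there.

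The 3 relatives of Apobec3 tested did not pass between the tumor groups. Apobec1, which edits apolipoprotein B messenger RNA, averaged 10.2 ± 0.204 in K8 tumors and 9.82 ± 0.491 in Lgr5 tumors (SD, n = 10 each), and differed by 0.34 ± 0.15 (SE; limma adjusted p = 0.111); without the 5 arrays rich in fat cell markers the difference was -0.057. Apobec2, a gene of skeletal and heart muscle, ran between 5.89 and 9.7 in K8 tumors and between 5.61 and 9.91 in Lgr5 tumors, with a difference of -0.25 ± 0.59 (limma adjusted p = 0.804). Apobec2 is also among the 86 genes above. Apobec4 stayed at 4.94 to 5.04 in K8 tumors and 4.95 to 5.06 in Lgr5 tumors, with a difference of -0.04 ± 0.02 (limma adjusted p = 0.204). None of the 3 divided the 25 arrays as Apobec3 or AI506816 did.

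Of 18 measured host genes that act against retroviruses or repair uracil in DNA, 3 were higher in K8 tumors, 0 lower and 15 did not pass. Their median difference was 0.02, beside 0.01 over all genes, and 12.3% of all genes were higher. Trim28, a corepressor that silences endogenous retroviruses, was higher by 0.39 ± 0.09 (SE; limma adjusted p = 0.0128). Serinc5, a membrane protein gene that lowers the infectivity of retroviral particles, was higher by 0.60 ± 0.19 (limma adjusted p = 0.0313), and Ung, the uracil-DNA glycosylase gene, by 0.14 ± 0.04 (limma adjusted p = 0.0196). Of 19 interferon-stimulated genes 0 passed in limma and 0 had an unadjusted p under 0.05. Over all 19937 genes, 4246 (21.3%) passed and 7080 had an unadjusted p under 0.05. The median difference of the 19 was 0.06. With array weights 2 of them passed, beside 7997 of all genes.

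Of 13 measured genes whose level or copy number is known to differ between laboratory strains, 2 were higher in K8 tumors, 1 was lower and 10 did not pass, beside 21.3% of all genes called. Wdfy1 was higher by 0.28 ± 0.08 (SE; limma adjusted p = 0.0254, and 0.0641 with the replicate block) and Pttg1, the securin gene, by 0.32 ± 0.10 (limma adjusted p = 0.0270). Gbp2b, a guanylate-binding protein gene, was lower, with a difference of -0.69 ± 0.23 (limma adjusted p = 0.0359). Ifi202b, an interferon-inducible gene of chromosome 1, had a difference of -0.92 ± 0.37 (limma adjusted p = 0.0766), and 0.13 with the fat marker mean as a covariate. The median difference of the 13 was -0.04. None of them divided the arrays as either member did.

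Of the 19 tested neighbours of Apobec3, 6 were higher in K8 tumors, 0 lower and 13 did not pass, with a median difference of 0.07; over all genes 12.3% were higher and 9.0% lower. Tab1, an activator of the kinase Tak1, was higher by 0.38 ± 0.09 (SE; limma adjusted p = 0.0128). Cby1, a gene of cilia and beta-catenin signalling, was higher by 0.41 ± 0.11 (limma adjusted p = 0.0163). The other 4 were the RNA helicase gene Ddx17, the deubiquitinase gene Josd1, Dnal4 and the glycosyltransferase gene Mgat3, with differences of 0.19 to 0.27. Cbx7 did not pass, at -0.21 ± 0.19 (limma adjusted p = 0.457). Of the 20 chromosome 5 neighbours of AI506816, Reln, the reelin gene, was higher by 1.31 ± 0.43 (SE; limma adjusted p = 0.0352, and 0.0546 with the replicate block). The endothelial nitric oxide synthase gene Nos3, at -0.94 ± 0.25 (limma adjusted p = 0.0167), and Fam126a, at -0.35 ± 0.11 (limma adjusted p = 0.0326), were lower, and 17 did not pass, beside the same shares over all genes. With the fat marker mean as a covariate the differences of Nos3 and Fam126a turned to 0.098 and 0.071. Endothelial markers averaged 7.89 to 9.71 in K8 tumors and 8.62 to 9.94 in Lgr5 tumors, and their part in the Nos3 difference was not tested.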

How the data were processed

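Total RNA of 25 mammary tumors and glands, 100 ng per sample, was amplified and labelled for Affymetrix arrays, according to the labels' protocols. The deposited values of 34760 probe sets are on a log2 scale by their range, and the authors had normalized them between arrays, by their nearly shared distribution; the base is not stated. The submitters' processing notes name affy; its steps and version, and any genome build, are not given in the sources used. The number of arrays limits the precision.

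Of the probe sets, 21640 had 1 gene symbol, 1321 several and 11799 none listed; 21553 were found in the gene table of GRCm38.p6 with unchanged symbols. Where several probe sets shared a symbol (954 symbols), that with the highest mean was used, giving 19937 genes without a filter on low values. Arrays were grouped by title. A member's arrays were divided at its widest empty interval with at least 3 arrays on each side, and other genes were measured by the gap between these sides, at least 0.5, with no test.

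Group means of the 4 labelled groups over all 25 arrays were compared with limma 3.58.1 in R 4.3.3 (lmFit, eBayes, Benjamini-Hochberg, 0.05). On simulated data it recovered 94 of 100 genes changed by 1 and 98 of 100 changed by 2 between tumors, with 9 false calls. Between glands it recovered 79 and 90, with 13 false calls. The simulated noise was independent between genes, without tissue content that many genes share. These figures therefore do not give the error rate of the real contrasts. Members, lists and tests were chosen with earlier results of these data known. Named genes are the members, their family, the 4 genes of each other list with the smallest adjusted p, genes called, 10 neighbours on each side and the 15 widest gaps in each direction; the text names these in part. The alternatives tried were other normalizations, filters, arrays, covariates, probe sets and gap minimums. Figures were drawn with matplotlib 3.10.9.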

Additional observations from a re-analysis of the deposited data

Results flagged for a closer look

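Within groups of 10 tumors, the gap of the highest or lowest array to its nearest neighbour was set against Dixon's critical ratio of 0.466. It exceeded this ratio for 9 of 52 genes and groups examined. Chance flags about 1 in 20 where the gene was not chosen by its values. The members and the probe sets that divide the arrays as Apobec3 does were chosen by their gaps. That rate does not apply to them. Many of the other genes examined were named for a small adjusted p or a limma call in these same groups. The arrays of a group also differ in tissue content. The rate is therefore no measure for those genes either, and all flags are a description. AI506816 measured 9.05 in K8 tumor 7, with the next K8 tumor at 4.96. D730005E14Rik measured 8.52 in Lgr5 tumor 3, with the next Lgr5 tumor, also on the high side of Apobec3, at 7.34. K8 tumor 7 also stood apart for Apobec2, at 9.70 with the next at 7.36, and for Ifi202b, at 8.20 with the next at 6.41. This array had skeletal muscle markers at 10.44.

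K8 tumor 9, high in squamous markers, stood apart for Serinc5, at 11.2 with the next at 10.7, for Josd1, at 8.07 with the next at 8.38, and for Reln, at 6.47 with the next at 8.27. Lgr5 tumor 10, also high in squamous markers, measured 6.85 for Ung, with the next at 6.69. Lgr5 tumor 5 measured 6.12 for Mgat3, with the next at 5.84.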

How the results depend on the processing

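The differences in level of both members kept their direction in every alternative run for them, except that the gland difference of AI506816 crossed 0 when single arrays were left out. Leaving out single arrays gave 0.84 to 1.13 for the tumor difference of Apobec3 and -0.40 to -0.07 for the glands, and -1.83 to -1.04 and -0.01 to 0.10 for AI506816, whose tumor difference was -0.07 by medians. The count of genes that divide the arrays as Apobec3 does was 0 at a gap of at least 1, 42 at any gap in either direction, 4 over all probe sets, 2 with tumors only (with Rabl2) and 4 with 1 array allowed on the wrong side (with Rabl2, Cirbp and Rpl34). It was 1 to 2 without single arrays: 2 without K8 tumor 3, Lgr5 tumor 5 or Lgr5 gland 2. Without both K8 tumor 9 and Lgr5 tumor 10 the count was 1, again D730005E14Rik, in a setting added for this count after the data were seen. For AI506816 it was 19 at any gap, 96 without Lgr5 tumors 2, 6, 7, 8 and 9 (3 against 17 arrays), and 0 to 0 without single arrays.

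Between tumors, limma called 7997 genes with array weights and 0 with the fat marker mean as a covariate or without Lgr5 tumors 2, 6, 7, 8 and 9; single arrays left out gave 2291 to 5698, with the lowest 4 counts (2291 to 2403) without Lgr5 tumors 2, 6, 7 or 8. Of the 90 genes of the lists and neighbours, 15 passed, and the same settings gave 32, 0 and 0, and 7 to 21. Without K8 tumor 9 and Lgr5 tumor 10, limma called 5651 genes between tumors, and 19 of these 90. Between glands 5 passed with array weights, 1 without K8 tumor 9 and Lgr5 tumor 10, and 0 to 15 without single arrays (15 without K8 gland 2). Signs turned for Apobec1 (-0.083 with the covariate and -0.057 without the 5 Lgr5 tumors), Ifi202b (0.13), Fam126a (0.071) and Nos3 (0.098, all with the covariate), and for Apobec2 (-0.60 to 0.085 without single arrays; 0.085 without Lgr5 tumor 4 and 0.026 without Lgr5 tumor 1). The cause was not tested.

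With the replicate number as a block, limma called 4246 genes between tumors, of which 3805 were shared with the 4246 called without it. Of the 15 list and neighbour genes called, Wdfy1 and Reln were lost. Same-numbered arrays deviated together in some pairs only, with correlations of -0.147 to 0.513 between tumors and of -0.275 and -0.0878 between glands. Tissue content differs between arrays of a group, so these values cannot decide whether the numbers pair the arrays. Scanner files were not used here, so background correction could not be varied. Probe sets near the low end of the scale, such as AI506816 in 20 arrays, show only that the signal was near the lowest on the array.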

Other observations

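Across all genes, most wide empty intervals followed other arrays than those of Apobec3 and AI506816. Of 536 genes with an interval of at least 1, 241 separated Lgr5 tumors 2, 6, 7, 8 and 9 from the rest. Another 91 separated the K8 glands, Lgr5 glands 1 and 3, K8 tumor 9 and Lgr5 tumor 10. In all, 32 divisions were carried by more than 1 gene and 40 by 1 gene, and the division of AI506816 was among the 40. The 3 genes with wider intervals than AI506816 were Spink12 at 5.42, Klk14 at 4.37 and Il1f6 at 4.24, and the albumin gene Alb followed at 4.03; they were chosen after their values were seen.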
